A study of Mus musculus with 6 samples.

Results

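Open chromatin was compared between Utx-knockout and wild-type bone marrow progenitors at 10 genes for surface proteins that define stem and progenitor cells. The genes were Kit, Flt3, Slamf1, Cd34, Procr, Tek, Ly6a, Esam, Cd48 and Cd27, chosen by name out of 21883 protein-coding genes. Every ATAC-seq peak in a gene or within 20 kb of its RefSeq span (mm10) was counted. ATAC-seq cuts accessible DNA with a transposase, so a peak marks open chromatin. The cells came from C57BL/6 mice as the lineage-negative fraction of bone marrow, from which a depletion kit had removed cells with mature blood-lineage markers. There were 3 samples labelled UTX_KO (KO1 to KO3), from mice lacking Utx, and 3 labelled UTX_WT (WT1 to WT3). The age, the deleted exons, the Cre driver if any, and whether each sample was a separate animal are not given in the labels, so p-values measure the spread between these samples only. UTX, encoded by Kdm6a, removes methyl groups from lysine 27 of histone H3 and works inside the MLL3 and MLL4 enhancer complexes.

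Blood stem cells and their first descendants are told apart by antibodies against these proteins. KIT, FLT3 and TEK are receptor tyrosine kinases, for stem cell factor, FLT3 ligand and the angiopoietins. In the mouse, stem cells carry KIT, SCA-1 (Ly6a), CD150 (Slamf1), EPCR (Procr), ESAM and TEK. They lack or have little of FLT3, CD48 and CD34, which appear on multipotent and committed progenitors together with CD27. Several of the genes are also used outside this compartment: Kit in mast cells and early erythroid cells, and Tek, Esam, Procr and Cd34 in endothelium.

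The 10 genes held 40 to 44 peaks per knockout sample and 55 to 59 per wild-type sample. These were 0.0893% ± 0.00156 of all peaks in knockout and 0.0995% ± 0.00371 in wild type (SD, n = 3 each). The whole lists were shorter in knockout, 44576 to 50249 peaks against 57405 to 57917 in wild type, so fewer peaks at any gene must be read against that. The files hold coordinates only, which leaves the read depth unknown. The smallest peak in every list was 199 bp wide, and narrow peaks lie closest to being missed. Kdm6a itself kept 5 or 6 peaks in each knockout sample, against 4 or 5 in wild type, which does not check the deletion because the deleted part is not known. In bulk cells, fewer cells of a type and less open chromatin per cell cannot be told apart.

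In knockout samples open chromatin fell within 20 kb of Slamf1 and Kit, and by less near Esam and Cd34, in a test of bases under peaks described below. For Esam the difference did not pass inside the gene or within 10 kb. Over all genes tested, 40.8% fell. Procr and Tek had peaks in wild-type samples only and are described without that test. Flt3, Ly6a, Cd48 and Cd27 did not pass it. With each sample centred on its median gene, Esam and Cd34 no longer passed, and Ly6a and Cd48 rose. The number of peaks was lower in every knockout sample than in any wild-type sample for 7 of the 10 genes, namely Kit, Flt3, Slamf1, Cd34, Procr, Tek and Esam. Among 16981 genes with a peak, 27.6% were lower without overlap in this way. No gene of the 10 was higher without overlap, where 4.25% of all genes were. An exact permutation test (two-sided) gave each of the 7 a p of 0.1; with 3 samples per genotype no smaller p is possible, so none could pass 0.05. With each list cut to its widest 44576 peaks, the length of the shortest list, only Tek stayed without overlap. The share over all genes with lists so cut is not given.

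**Figure D1:**
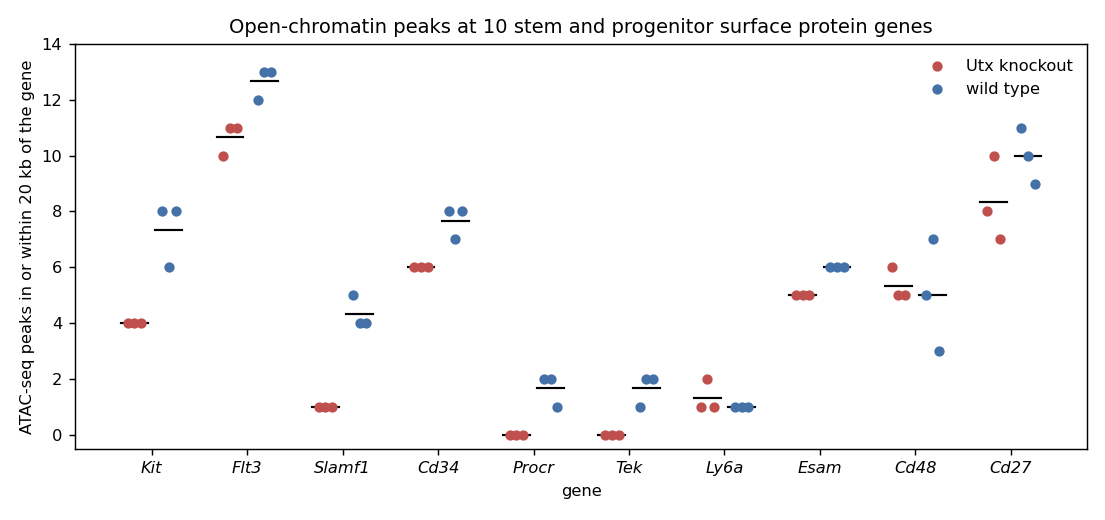
Number of peaks in or within 20 kb of each of the 10 genes (vertical axis) by gene, with 1 point per sample, knockout in red left of wild type in blue, and black lines for group means. Kit, Slamf1, Procr and Tek have the widest gaps for their size, and the groups overlap at Ly6a, Cd48 and Cd27.

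The regions around these genes were lost about as often as regions elsewhere. Peaks of all 6 samples that share a base were merged into regions, and 69 lay at the 10 genes. A region was called lost when it had a peak in no knockout and in all 3 wild-type samples, and gained in the reverse case. Of the 69, 8 were lost (11.6%), against 10.7% of 62091 regions within 20 kb of any protein-coding gene. Gained regions numbered 2 (2.90%), against 4.05%. Peaks in 1 or more wild-type samples and no knockout sample were found in 23 regions (33.3%, background 28.5%), and the reverse in 3 (4.35%, background 10.7%). A peak in all 6 samples was found in 33 regions (47.8%, against 42.9% near all genes). The lost share is therefore close to that of other genes, and what follows describes where the lost regions lie.

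The lost regions sat at 5 genes: 3 at Slamf1, 2 at Kit and 1 each at Cd34, Procr and Tek. Both gained regions lay at Cd48, and Flt3, Ly6a, Esam and Cd27 had neither. Of the 8 lost regions, 5 lay inside the gene and 0 covered a first base. Their mean width in wild type ran between 240 and 522 bp with a median of 320 bp. All lost regions near genes had a median of 365 bp, and regions open in all 6 samples 625 bp. The lost regions at these genes were thus narrow ones.

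**Figure D2:**
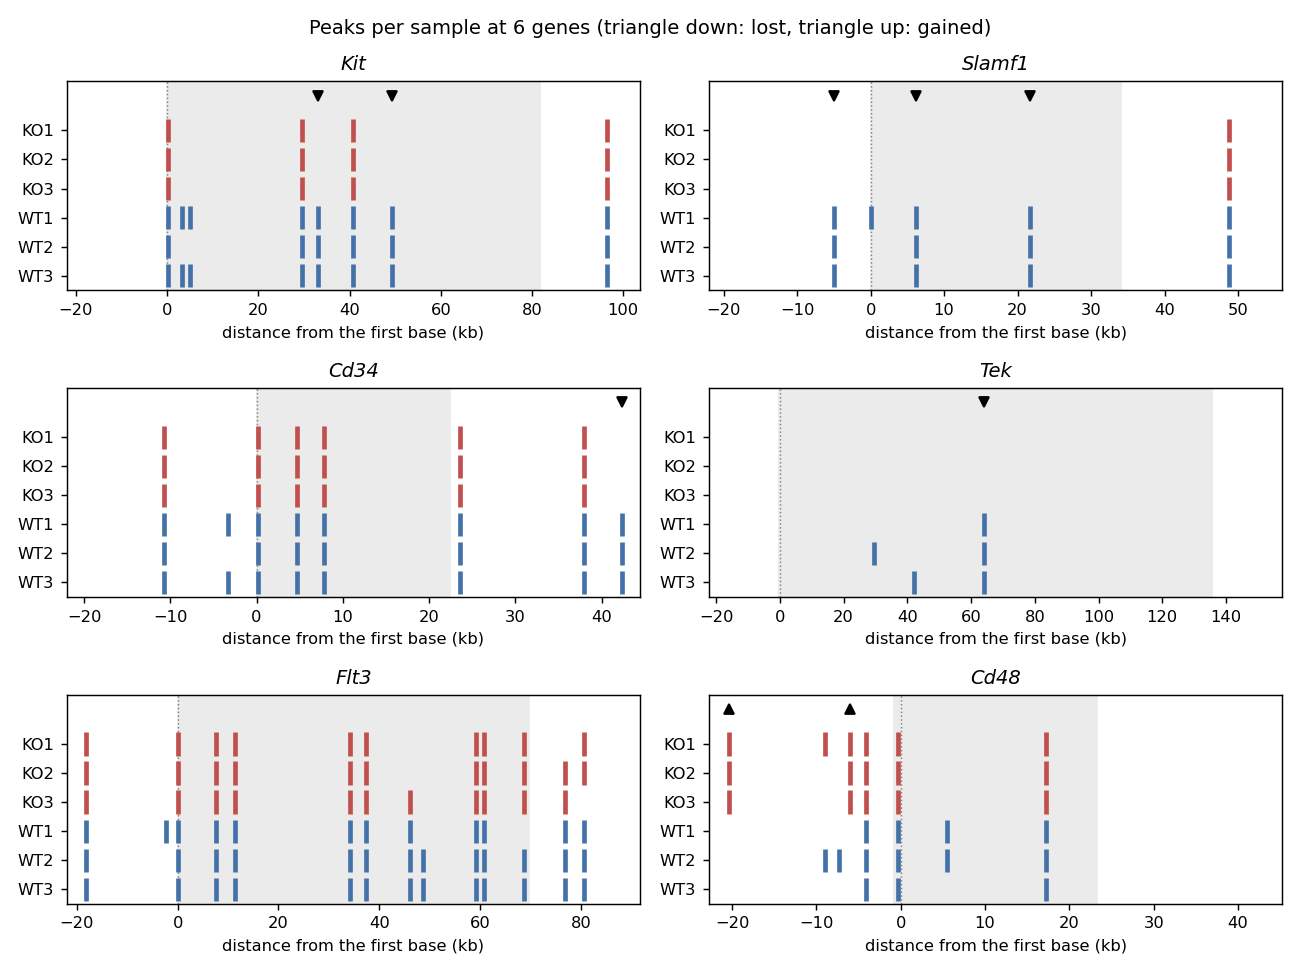
Regions with a peak in each sample (rows; knockout red above wild type blue) against distance from the gene's first base in kb, at 6 genes; bars mark region centres and not widths, grey marks the gene span, and triangles mark lost (down) and gained (up) regions. Lost regions stand inside Kit, Slamf1 and Tek and beside Slamf1 and Cd34, while the gained regions stand before Cd48.

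The start sites of the genes were in differing states, and sequence from RefSeq (GRCm38.p6, the mm10 assembly) was at hand for 8 of the 10, without Ly6a and Esam. Windows of 300 bases, 250 before to 50 after the first base, met a peak in all 6 samples at Kit, Flt3, Cd34 and Cd48. The Cd27 window met one in 2 of 3 knockout and all 3 wild-type samples, and that of Slamf1 in 0 knockout samples and 1 wild-type sample. Procr and Tek had no peak in this window in any sample. Of 17491 protein-coding genes with such a window, 48.9% were open in all 6 samples and 45.0% in none. Open and closed start sites are shown by 4 windows, on the plus strand, with GATAA (the core that GATA factors bind), GGAAG (ETS factors) and TGTGGT (RUNX factors) in capitals on either strand. Kit (chr5:75574737-75575036) and Cd34 (chr1:194938571-194938870) were open in every sample, Slamf1 (chr1:171766882-171767181) in WT1 alone, and Tek (chr4:94739039-94739338) in none.
Kit: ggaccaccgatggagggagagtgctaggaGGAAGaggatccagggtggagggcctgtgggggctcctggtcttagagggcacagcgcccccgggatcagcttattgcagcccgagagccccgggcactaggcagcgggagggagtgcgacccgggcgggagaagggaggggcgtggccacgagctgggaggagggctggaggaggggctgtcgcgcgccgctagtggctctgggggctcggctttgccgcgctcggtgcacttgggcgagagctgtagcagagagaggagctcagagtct
Cd34: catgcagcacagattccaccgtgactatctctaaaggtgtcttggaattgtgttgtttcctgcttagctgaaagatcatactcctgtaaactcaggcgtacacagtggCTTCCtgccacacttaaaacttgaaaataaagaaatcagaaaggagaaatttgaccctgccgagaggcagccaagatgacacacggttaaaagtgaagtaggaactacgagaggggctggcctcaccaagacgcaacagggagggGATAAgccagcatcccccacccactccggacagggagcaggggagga
Slamf1: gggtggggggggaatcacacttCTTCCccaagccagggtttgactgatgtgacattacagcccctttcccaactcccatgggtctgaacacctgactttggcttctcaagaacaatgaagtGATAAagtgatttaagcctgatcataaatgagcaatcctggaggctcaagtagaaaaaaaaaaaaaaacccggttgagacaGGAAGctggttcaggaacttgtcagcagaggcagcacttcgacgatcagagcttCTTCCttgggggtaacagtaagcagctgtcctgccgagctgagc
Tek: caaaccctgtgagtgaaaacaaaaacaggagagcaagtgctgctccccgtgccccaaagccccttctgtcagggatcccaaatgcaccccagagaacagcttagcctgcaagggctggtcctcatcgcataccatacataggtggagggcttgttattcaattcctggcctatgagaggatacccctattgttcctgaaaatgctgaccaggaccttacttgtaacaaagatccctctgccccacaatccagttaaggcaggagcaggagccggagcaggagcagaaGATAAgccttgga
The Kit window is 69.0% G and C with 20 CpG pairs, against 50% with 7 at Cd34, 49.0% with 4 at Slamf1 and 52.0% with 3 at Tek. Over all such windows the median was 56.3% with 13 CpG pairs, or 61.7% where open in all 6 samples and 48.3% where open in none. GATAA was found in 3 of the 8 windows, those of Slamf1, Cd34 and Tek, and in 23.0% of all windows. GGAAG was in 7 of 8, all but Tek (72.1% of all), TGTGGT in 1, Cd48 (15.1%), and the E-box CANNTG in 7, all but Cd34 (68.8%). A match to letters is no evidence of binding.

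Kit encodes the receptor for stem cell factor and had 4 peaks in every knockout sample, against 8, 6 and 8 in WT1, WT2 and WT3. The same 4 regions were open in all knockout samples and no other was. These were the start site, 2 regions inside the gene 29.5 and 40.9 kb after the first base, and 1 beyond its end. The regions lost lay inside the gene, 33.2 kb (chr5:75607971-75608388) and 49.4 kb (chr5:75624082-75624697) after the first base. The first held 306, 199 and 418 bp of peak in WT1, WT2 and WT3, and so just reached the smallest peak width in WT2. The second held 587, 447 and 531 bp and was also lost with equal list lengths, as the first was not. Regions 3.21 and 4.97 kb after the first base had a peak in WT1 and WT3 and in no other sample, so that without WT2 the lost regions at Kit would number 4. The start-site region (chr5:75574504-75576058) held 1307, 1332 and 1374 bp in knockout, against 1456, 1484 and 1490 bp in wild type. The groups did not overlap there, but the difference did not pass in the width test described below (limma, adjusted p = 0.236).

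Tek, the angiopoietin receptor gene, had no peak in any knockout sample, against 1, 2 and 2 in the wild-type samples. All peaks lay inside the gene. The lost region, 64.1 kb after the first base (chr4:94803152-94803649), held 413, 475 and 483 bp in wild type and was lost with equal list lengths as well. The others were found in WT2 alone and in WT3 alone.

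Flt3, the FLT3 ligand receptor gene, had the most peaks of the 10 in the group means, with 10, 11 and 11 peaks in knockout, against 12, 13 and 13 in wild type. It had 14 regions, 8 of them open in all samples and 0 lost or gained. The other 6 were open in some samples only. Of these, 1 inside the gene had peaks in WT2 and WT3 alone and 1 before the first base in WT1 alone. Also inside the gene, 1 region (chr5:147331575-147331887) had peaks in all 3 knockout samples and in WT2 and WT3. A further 2 outside the gene, nearest to Urad, had peaks in 2 knockout and all 3 wild-type samples. Another inside the gene had a peak in KO3 and all wild-type samples. Without KO3, or without WT1, 1 region at Flt3 would be lost. Inside the gene alone, the difference in mean peaks was -1 and the groups overlapped, against -2 within 20 kb. The start site (chr5:147399929-147400864) was equally wide, 738 ± 45.2 bp in knockout and 742 ± 129 bp in wild type (SD, n = 3).

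Slamf1 encodes CD150, a self-binding receptor of the SLAM family, and kept 1 of its 5 regions in knockout. Each knockout sample had 1 peak, against 5, 4 and 4 in wild type. The region kept (chr1:171815723-171816199) lies 14539 bp beyond the gene, with 415 to 477 bp in knockout and 432 to 453 bp in wild type. The lost regions lay 5008 bp before the first base (chr1:171761943-171762306) and 6.24 and 21.7 kb after it (chr1:171773187-171773550 and chr1:171788687-171788987). Their wild-type widths were 202 to 312 bp, near the smallest peak. With equal list lengths WT3 had 1 peak at Slamf1 and the other wild-type samples 3, so the groups overlapped and 0 of these regions was lost.

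Cd48 encodes another SLAM family protein, lies beside Slamf1 on chromosome 1 and held both gained regions. It had 6, 5 and 5 peaks in knockout, against 5, 7 and 3 in wild type, so the counts overlapped. They lay before the gene. One, 6013 bp before the first base (chr1:171675823-171676135), held 214, 267 and 313 bp in knockout. The other, 20345 bp before it (chr1:171661514-171661780), held 252, 267 and 229 bp in knockout, and its nearest gene is Slamf7. Both were gained with equal list lengths too. The start-site region held 1387, 1536 and 1435 bp in knockout, against 1068, 1161 and 1282 bp in wild type, without overlap (limma, adjusted p = 0.0796).

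Cd34, for a sialomucin that binds selectins, had 6 peaks in each knockout sample, against 8, 7 and 8 in wild type. The same 6 regions were open in all samples. The lost region (chr1:194980912-194981502) lay 19620 bp beyond the gene, at the limit of the window, and held 266, 486 and 586 bp in wild type. A region 3254 bp before the first base had peaks in WT1 and WT3 alone, and without WT2 it would make 2 lost regions. The start-site region held 428, 404 and 606 bp in knockout, against 634, 945 and 625 bp in wild type, without overlap (limma, adjusted p = 0.106).

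Procr, for the endothelial protein C receptor, had no peak in any knockout sample, against 2, 2 and 1 in wild type. The lost region, 8039 bp before the first base (chr2:155742967-155743390), held 272, 302 and 420 bp in wild type. Each of the others was found in a single wild-type sample. With equal list lengths WT1 had no peak there, so Procr then overlapped between the groups.

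Few peaks lay in Ly6a and Esam themselves. Ly6a, which encodes the GPI-anchored protein SCA-1, had no region inside the gene in any sample. Its 1 region shared by all samples (chr15:74988350-74989757) lay 5120 bp outside the gene and nearest to Ly6i, with 1328 to 1394 bp in knockout and 1116 to 1323 bp in wild type. Esam, for an adhesion molecule of tight junctions, had 5 peaks in each knockout sample and 6 in each wild-type sample. Of its 7 regions, 5 were nearest to Msantd2 or Nrgn, so its count speaks partly of those genes. The region inside Esam held 467, 276 and 369 bp in knockout, against 442, 540 and 295 bp in wild type, with overlap.

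Cd27, a receptor of the TNF receptor family for CD70, had 8, 10 and 7 peaks in knockout, against 11, 10 and 9 in wild type, with overlap. The region over its first base (chr6:125236315-125237249) held 476 and 420 bp in KO1 and KO2 and none in KO3, against 903, 454 and 827 bp in wild type. A region 1823 bp before it held 306 and 233 bp in KO2 and KO3 and none in KO1, against 639, 580 and 606 bp in wild type. The groups overlapped at the first base, where WT2 was below KO1, and did not overlap at the second region, while 4 of its 11 regions were nearest to Vamp1 or Tapbpl.

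Bases under peaks within 20 kb of each gene were compared over 16511 genes with a peak in at least 3 samples, as log2(bases + 500) with limma and Benjamini-Hochberg adjustment over all of them. Procr and Tek passed the filter only through wild type and so are left out of the counts. Of the 8 genes open in all samples, 4 fell (adjusted p under 0.05) and 0 rose, where 40.8% of all genes fell and 7.8% rose. The shares and medians over all genes cover the 16511, which also hold genes not open in every sample. The median difference was -0.30 for the 8 genes and -0.21 for all genes, on the log2(bases + 500) scale. Since the median gene was lower in knockout, the fit was repeated with each sample centred on its median gene. Then 18.5% of all genes fell and 21.4% rose, and of the 8 genes Slamf1 and Kit fell and Cd48 and Ly6a rose.

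Kit had 2282 ± 103 bp under peaks in knockout and 3861 ± 517 bp in wild type (SD, n = 3 each), a log2 difference of -0.64 ± 0.10 (SE; limma, adjusted p = 0.00211). Centred, it was -0.40 (adjusted p = 0.0142). Slamf1 had 418, 415 and 477 bp in knockout, against 1488, 1269 and 1186 bp in wild type. The log2 difference was -0.95 ± 0.08 (SE; limma, adjusted p = 2.63e-04), or -0.71 centred (adjusted p = 0.00123). It no longer passed with equal list lengths (-0.49, adjusted p = 0.0879) or with the widest 50% of peaks (-0.59, adjusted p = 0.132). These were the largest falls among the 8 genes open in both genotypes.

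Procr was listed at 0 in knockout and held 486, 558 and 420 bp in wild type, and Tek was listed at 0 and held 413, 751 and 735 bp. The groups do not overlap at either gene. Their fitted differences depend on the added 500 bases and are not given. Esam had 2019 ± 64.5 bp in knockout and 2967 ± 286 bp in wild type, a log2 difference of -0.46 ± 0.08 (SE; limma, adjusted p = 0.00357). Centred, it was -0.21 and did not pass (adjusted p = 0.0874). It was -0.09 (adjusted p = 0.651) inside the gene and -0.15 (adjusted p = 0.328) within 10 kb. A region 13582 bp outside Esam, nearest to Nrgn, held 390, 498 and 685 bp in knockout, against 1175, 869 and 723 bp in wild type. The region nearest to Msantd2 held 214, 304 and 0 bp, against 421, 451 and 403 bp. The call near Esam thus rests partly on regions nearest to other genes.

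Cd34 had 3775 ± 101 bp in knockout and 4815 ± 473 bp in wild type, a log2 difference of -0.31 ± 0.08 (SE; limma, adjusted p = 0.0195), and -0.07 centred (adjusted p = 0.570). Without 1 sample it missed the threshold in 4 of 6 cases, namely KO2, KO3, WT2 and WT3 (adjusted p up to 0.0537), and it also missed with equal list lengths (adjusted p = 0.0779). Cd27 was at -0.29 ± 0.12 (adjusted p = 0.0837; without KO2 -0.40, adjusted p = 0.0258) and, within 10 kb, at -0.64 (adjusted p = 0.0103). Cd34 was thus below the median gene by an amount that did not pass once samples were centred, and near Cd27 the call depended on distance.

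Flt3 had 6274 ± 485 bp in knockout and 6424 ± 153 bp in wild type, a log2 difference of -0.03 ± 0.08 (SE; limma, adjusted p = 0.738), although it had fewer peaks. Centred, it was 0.21 (adjusted p = 0.0599), so its sign turned with the scaling, and within 50 kb it was -0.40 (adjusted p = 0.00815). Ly6a had 1423 ± 103 bp in knockout and 1207 ± 106 bp in wild type, 0.17 ± 0.08 (adjusted p = 0.111) and 0.42 centred (adjusted p = 0.00274). Cd48 had 2824 ± 205 bp in knockout and 2273 ± 641 bp in wild type, 0.28 ± 0.15 (adjusted p = 0.161), and 0.53 centred (adjusted p = 0.0331). Cd48 passed without WT2 (0.47, adjusted p = 0.0121) and within 50 kb (0.67, adjusted p = 0.00275). Within 20 kb and with all samples, Ly6a and Cd48 therefore rose relative to the median gene and did not pass on the deposited values.

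**Figure D3:**
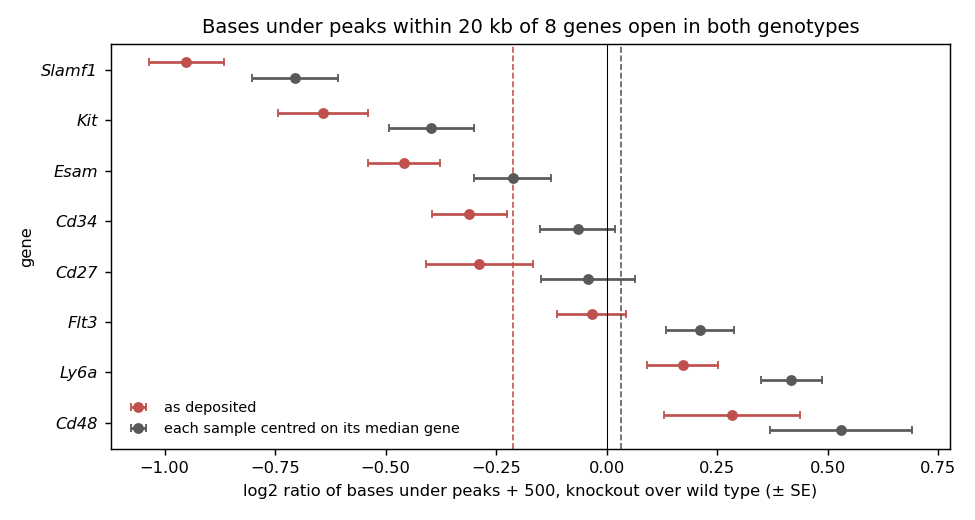
Log2 ratio of bases under peaks plus 500, knockout over wild type (horizontal axis, ± SE from limma, n = 3 each), for the 8 genes open in both genotypes; red is as deposited, grey with each sample centred on its median gene, and dashed lines are the medians of all genes. Slamf1, Kit, Esam, Cd34 and Cd27 lie left of the median of the same colour, with Slamf1 and Kit farthest. Flt3, Ly6a and Cd48 lie right of it.

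Regions open in all 6 samples can still differ in width, so the bases under peaks in each of 31159 such regions were compared with limma on the log2 scale. Of the 33 at these genes, 1 was narrower in knockout and 4 were wider (adjusted p under 0.05), where 8.61% of all were narrower and 6.16% wider. The median was -0.13 for the 33 and -0.10 for all. With samples centred, 7.14% of all were narrower and 7.62% wider, and again 1 and 4 of the 33. The 1 narrower region was then another, 16830 bp before Cd27 (chr6:125253966-125254513), with 312, 386 and 289 bp in knockout, against 548, 501 and 413 bp in wild type (limma, centred log2 difference -0.51, adjusted p = 0.0446).

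Near the far end of Flt3, 2 regions widened in knockout. The region 59.3 kb after the first base (chr5:147340777-147341667) held 819, 833 and 891 bp in knockout, against 423, 550 and 494 bp in wild type, a log2 difference of 0.80 ± 0.12 (SE; limma, adjusted p = 0.00746). Its neighbour at 60.9 kb (chr5:147339161-147340107) held 738, 780 and 849 bp in knockout, against 570, 522 and 484 bp in wild type, 0.59 ± 0.10 (adjusted p = 0.0131). Both passed without any 1 sample. With the sample number added to the fit as a block, only the region at 59.3 kb passed. So Flt3 had wider peaks in knockout at these regions, and fewer peaks within 20 kb, though inside the gene the counts overlapped.

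A region within Cd48, 17.2 kb after the first base (chr1:171698995-171699373), held 375, 375 and 350 bp in knockout, against 307, 286 and 288 bp in wild type, 0.32 ± 0.08 (limma, adjusted p = 0.0440). It did not pass without any 1 of the 6 samples (adjusted p 0.0752 to 0.125). The region of the Cd27 window that widened, at 583, 548 and 531 bp in knockout against 348, 320 and 356 bp in wild type (chr6:125222046-125222665), lies at an end of Vamp1 (0.70 ± 0.09, adjusted p = 0.00455). The only narrower region lay 14405 bp beyond Kit (chr5:75671127-75671767), with 394, 386 and 431 bp in knockout, against 558, 641 and 514 bp in wild type, -0.50 ± 0.11 (adjusted p = 0.0285). It missed the threshold when centred (adjusted p = 0.0523) and without any 1 sample other than WT3 (adjusted p 0.0548 to 0.0752).

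**Figure D4:**
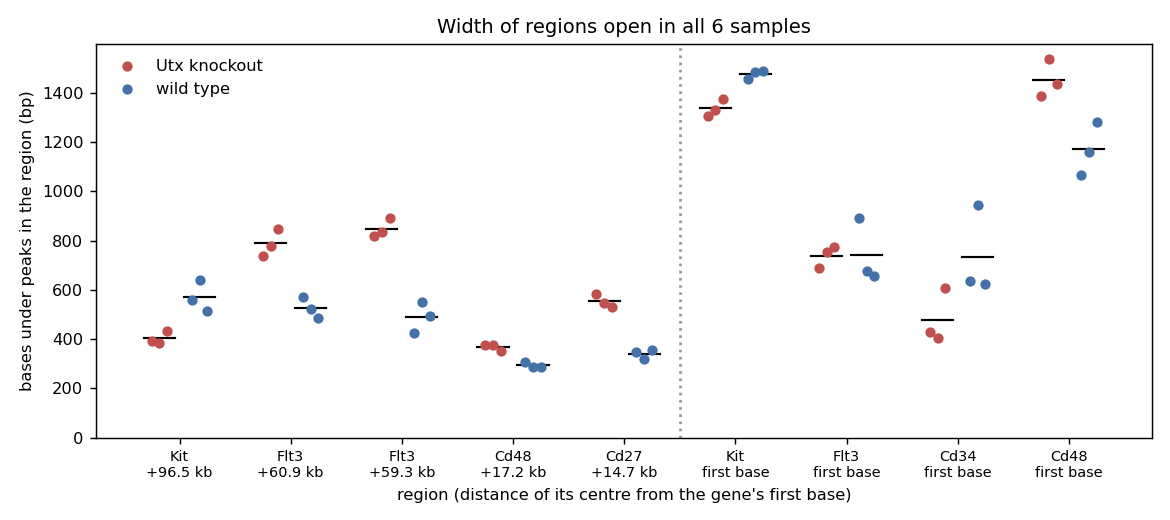
Bases under peaks (bp, vertical axis) in 9 regions open in all 6 samples, 1 point per sample, knockout red left of wild type blue, lines for means; left of the dotted line are the 5 regions past the threshold and right of it the start-site regions of Kit, Flt3, Cd34 and Cd48. The 2 called Flt3 regions lie above wild type in every knockout sample, and the Flt3 start site overlaps.

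Other genes of the same biology were counted from lists, to be read against the shares over all genes given above (40.8% fell and 7.8% rose; centred, 18.5% and 21.4%; 10.7% of regions lost and 4.05% gained). Of 35 other surface proteins of stem and progenitor cells, 13 fell and 6 rose in bases under peaks (centred, 6 fell and 12 rose), with a median of -0.10, and 25 of 318 regions (7.86%) were lost and 15 gained. Cxcr4, the receptor for the niche chemokine CXCL12, gained 5 and lost 1 of 14 regions, with 12.0 ± 1.0 peaks in knockout and 6.0 ± 2.0 in wild type (SD, n = 3). Cd82, a tetraspanin, and Eng, a TGF-beta co-receptor, lost 4 regions each, of 19 and 10. Of 10 ligands and partners, 6 fell and 1 rose (centred, 4 and 3), with a median of -0.29 and 6 of 73 regions lost and 6 gained. The 6 include Cd70 and Tie1, which had no peak in any knockout sample, so their calls depend on the added 500 bases. The gene that rose was Cd2, whose product binds CD48, with 9.67 ± 1.15 peaks in knockout and 5.67 ± 0.577 in wild type. Angpt1 and Angpt2, for ligands of TEK, lost 2 regions each and gained 2 and 1. Of 25 signalling genes below these receptors, 13 fell and 2 rose (centred, 4 and 4), with a median of -0.27, 22 of 276 regions lost and 16 gained. Pik3r1 gained 3 and lost 2 of 27, Cblb gained 3 and lost 1 of 21, and Fyn gained 3 and lost 1 of 18. Gab2, Stat5a and Stat3, added after their values were seen because they tie with Cblb and Fyn in lost plus gained regions, each lost 4 and gained 0. Stat5a and Stat3 are neighbours with overlapping windows, so lost regions that they share were counted at each gene. They are not separate losses.

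Markers of other cells that a lineage-negative fraction can hold were counted too, and their part in the results above was not tested. Over all genes 40.8% fell and 7.8% rose, or 18.5% and 21.4% centred. Of regions near genes, 10.7% were lost and 4.05% gained. Peaks were summed over the markers of a list, so a peak near more than 1 marker was counted for each. Regions were counted once. Peaks were shared in this way by, for example, Hbb-bt and Hbb-bs, Igll1 and Vpreb1, Pf4 and Ppbp, Cd3d and Cd3g, and Prtn3 and Elane. The calls of such neighbours rest partly on the same peaks. The filter for bases under peaks kept 8 megakaryocyte, 7 mast cell and basophil and 6 endothelial markers. It kept 6 T and NK and 9 granulocyte and monocyte markers, and every marker of the other lists. All 10 erythroid markers fell, also when centred. They had 22 to 24 peaks in knockout samples and 56 to 66 in wild-type samples, with 22 of 60 regions lost and 1 gained. Slc4a1 among them had no peak in any knockout sample, so its call depends on the added 500 bases. Of 9 megakaryocyte markers, which include Itga2b of the surface list, 6 fell (centred, 5). They had 21 to 26 peaks against 39 to 42, with 10 of 44 regions lost and 2 gained, and Gp6 at 0. Of 8 mast cell and basophil markers, 4 fell (centred, 3), with 19 to 27 peaks against 33 to 36, 2 of 46 regions lost and 1 gained. Of 7 endothelial markers, 3 fell and 1 rose (centred, 2 and 1). They had 20 to 26 peaks against 28 to 30, with 5 of 38 regions lost and 2 gained, and Emcn at 0. Of 4 stromal markers 2 fell (centred, 0), with 1 to 4 peaks against 6 to 11 and 1 of 11 regions lost. Cldn5 and Cxcl12, counted here as falls, had no peak in any knockout sample, so their calls depend on the added 500 bases. Of 10 B-cell markers, 6 rose and 0 fell (centred, 8 and 0). They had 64 to 80 peaks in knockout and 45 to 48 in wild type, with 16 of 88 regions gained and 1 lost. For T and NK cells 1 of 9 fell (centred, 0), with 18 to 19 peaks against 19 to 22. Of their 23 regions 1 was lost and 1 gained, with Cd8a and Gzma at 0. For granulocytes and monocytes 4 of 10 fell and 1 rose (centred, 2 and 1), with 45 to 58 peaks against 55 to 64. Of their 63 regions 2 were lost and 2 gained, with Ly6g at 0. For dendritic cells 1 of 5 fell and 1 rose (centred, 1 and 1), with 20 to 24 peaks against 26 to 31, 4 of 38 regions lost and 2 gained.

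**Figure D5:**
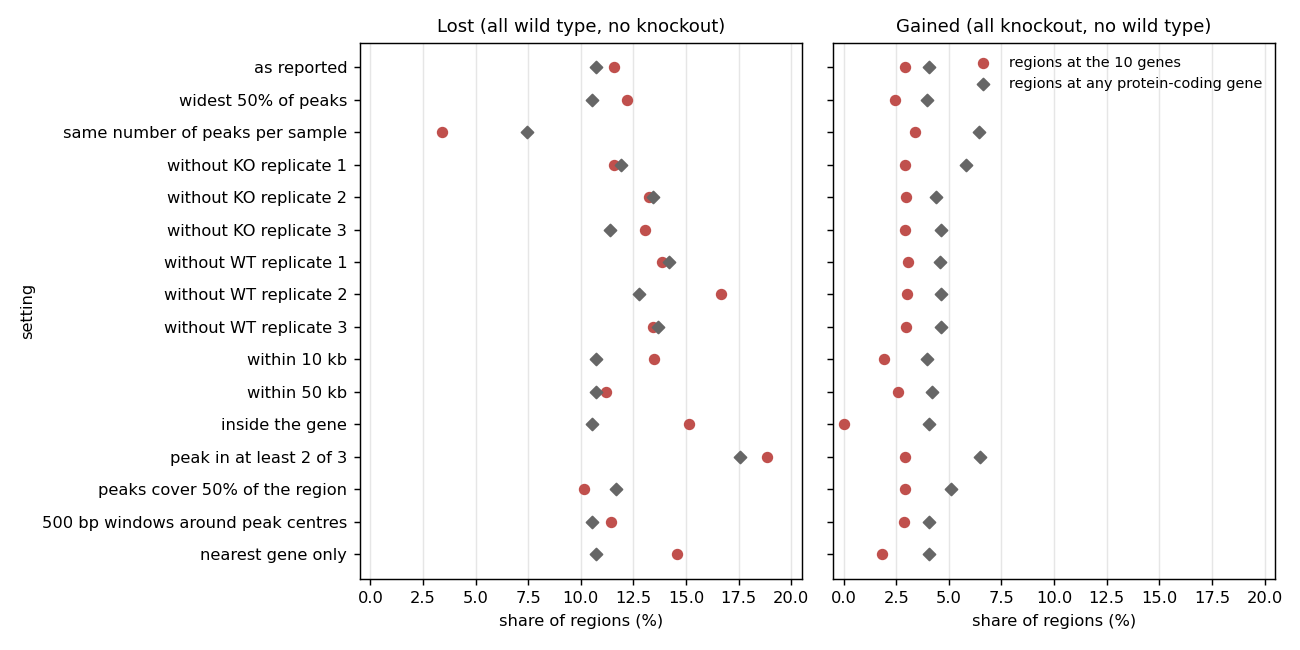
Share of regions lost (left) and gained (right), in percent, under each setting (rows) for regions at the 10 genes (red) and at any protein-coding gene (grey). Among lost regions the red points lie on either side of the grey ones, and among gained regions they lie below them in every row; with equal list lengths, 3.39% of regions at the 10 genes were lost, against 7.43% at all genes.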

How the data were processed

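ATAC-seq of lineage-negative bone marrow cells gave 6 lists of peaks, 3 per genotype, which the authors deposited as chromosome, start and end with no score. Peaks were called per sample with MACS2 on mm10, per the submitters' processing notes, and the file labels carry a p threshold of 1e-11. For its version, the aligner, duplicates and any shift of insertion sites, the entry is "not given in the sources used here".

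Peaks sharing at least 1 bp were merged into regions. Gene spans were those of RefSeq for GRCm38.p6 (21883 protein-coding genes on the chromosomes). Peaks per gene were compared by exact permutation tests (two-sided). Bases under peaks per gene window and per shared region were compared across all genes and regions with limma 3.58.1 (R 4.3.3), with Benjamini-Hochberg adjustment and a threshold of 0.05. These steps were tested on simulated data. The study's design text also names histone marks, not analysed here.

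All 10 genes, Kdm6a and, per list, up to 3 genes with the most lost plus gained regions (ties by number of regions, then alphabet) could be named. Those in the text follow this rule, except nearest genes, tied genes, neighbours that share peaks, genes with no peak in any sample or in any knockout sample, and genes of 2 lists. The genes and lists were chosen with earlier results of these data known.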

Additional observations from a re-analysis of the deposited data

How the results depend on the processing

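The count of 8 lost regions was 5 with the widest 50% (2 at Kit, 1 at Tek and 2 at Cd27, which had none before, with 0 at Slamf1, Cd34 and Procr), 2 with equal list lengths (Kit and Tek), 5 inside the genes, 13 within 50 kb and 13 when 2 of 3 samples sufficed. It ran between 8 and 11 without 1 sample. The count of 2 gained regions, both at Cd48, was 1 within 10 kb or by nearest gene and 0 inside the genes. With the widest 50% it was also 1, but at Cd27, with 0 at Cd48. The count of 7 genes lower without overlap was 4 within 10 kb or 50 kb (Kit, Slamf1, Procr and Tek), 3 inside the gene (Kit, Slamf1 and Tek) and 1 with equal list lengths (Tek). It was also 4 with the widest 50%, namely Kit, Cd34, Tek and Cd27, the last not among the 7. Without 1 sample it was 7 to 8. The share over all genes is given for the reported setting only (27.6%), so the counts under other settings have no background beside them. Of the 4 genes open in all samples that fell in bases under peaks, Kit passed in all 16 other settings. Slamf1 missed the threshold in 2 of these settings, Esam in 4 and Cd34 in 6. Procr and Tek are again left out. Over all genes, 6735 fell and 1288 rose. Inside the gene 3433 fell, and centred 3049 fell and 3541 rose.

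The direction turned in uncalled values. The difference in peaks was -1.33 at Ly6a within 50 kb, and at Cd48 -0.667 with the widest 50% or within 10 kb, -1.33 inside the gene, and -0.667 to 1.33 without 1 sample. The log2 difference in Flt3 bases was 0.066 with the widest 50%, 0.055 with equal list lengths, 0.012 within 10 kb, 0.095 inside the gene, 0.21 centred and -0.072 to 0.026 without 1 sample.

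Over all shared regions, 2683 were narrower and 1920 wider, or 1360 to 2594 and 1133 to 1659 without 1 sample. At these genes 5 regions passed, and without 1 sample 3 to 5 did, of which 3 to 4 were among the original 5 (both Flt3 regions and that at Vamp1, and without WT3 also that beyond Kit). The labels do not say what the sample numbers mark. Same-numbered deviations from the group means correlated at -0.0526, 0.0248 and 0.0109, which shows no pairing but cannot exclude one. With a replicate block on that number, 1611 were narrower and 2 at these genes passed. These were the Flt3 region at 59.3 kb and that at Vamp1, while the Flt3 region at 60.9 kb did not pass. With the block Kit and Slamf1 still passed for bases under peaks (limma, adjusted p = 0.00673 and 0.00177). The causes of these changes were not tested. Unknown depth and lists of unequal length limit all counts.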
